A study of Homo sapiens with 8 samples.

Results

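The bone morphogenetic protein (BMP) pathway and the ID genes were examined in uterine leiomyosarcoma (uLMS) cells through 10 genes chosen by name: the ligand gene BMP4, the receptor genes BMPR1A and BMPR2, the signal transducer genes SMAD1 and SMAD5, the inhibitory SMAD gene SMAD6, and ID1, ID2, ID3 and ID4. All 10 were found among the 60282 genes listed in the count table, and all 10 were among the 14073 genes with enough reads to be tested. The cells were SK-UT-1, a human line established from such a tumour and kept in medium with fetal bovine serum. They received TP-472 at 5 µM for 48 h or, as the vehicle, DMSO. TP-472 is a small-molecule inhibitor of the bromodomain protein BRD9, a subunit of a chromatin-remodelling complex, and the labels name BRD7 as a target beside BRD9. There were 4 RNA-seq libraries in each group. Because the cells are 1 cell line kept in serum at 1 dose and 1 time, the comparison describes that setting alone. The labels do not say whether the replicates came from separate cultures, while the paper states in general that its experiments used biological replicates. The p-values below measure the spread between these libraries.

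BMP ligands bind a complex of type I and type II receptor kinases at the cell surface, and the type I receptor then phosphorylates SMAD1, SMAD5 and SMAD9, which enter the nucleus with SMAD4. The ID genes are classical direct targets of these SMADs. ID proteins have a helix-loop-helix but no DNA-binding region, so they pair with E proteins and keep them off DNA, an activity known from the control of differentiation and proliferation. SMAD6 is both a target and an inhibitor of the pathway, and BMPR2 is the type II receptor best known from smooth muscle of the pulmonary artery.

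The total count per library ran from 32574716 to 36634184 in the vehicle group and from 36246466 to 38545695 in the TP-472 group. Levels are given as CPM, which are counts corrected for library size and, with TMM factors, for composition, and the values of single libraries follow the replicate numbers, from 1 to 4. Fold changes are TP-472 over vehicle on the log2 scale with a standard error (SE). The test was the quasi-likelihood F test of edgeR, with p-values adjusted by Benjamini and Hochberg's method over all 14073 genes, and a gene is said to have risen or fallen when the adjusted p was under 0.05 and the change over 1.5-fold.

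Vehicle replicate 3 stood apart before any comparison was made. Its median Spearman correlation with the other vehicle libraries was 0.914, against 0.988 to 0.989 for vehicle replicates 1, 2 and 4 and 0.993 to 0.997 within the TP-472 group. In 7200 of the genes tested (51.2%) it differed by more than 1.5-fold from the mean of the other vehicle libraries. The deviation followed the GC content of the transcripts. Among 4211 genes with a GC content of at least 55% the median ratio of vehicle replicate 3 to the other vehicle libraries was 1.80, and among 4764 genes with at most 45% it was 0.640. The 10 genes were spread along the same line: the 4 with a GC content over 50% (ID1, ID3, BMP4 and SMAD6) were higher in vehicle replicate 3 than in every other vehicle library, by 1.75 to 2.30 times. Of the 6 with a lower GC content, 5 were lower in vehicle replicate 3 than in every other vehicle library, and BMPR2 was the exception, with a ratio of 0.976. The fold changes of the 10 genes are therefore given with and without this library, and those of the other genes where it ended a call, turned the direction or moved the value strongly.

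**Figure D1:**
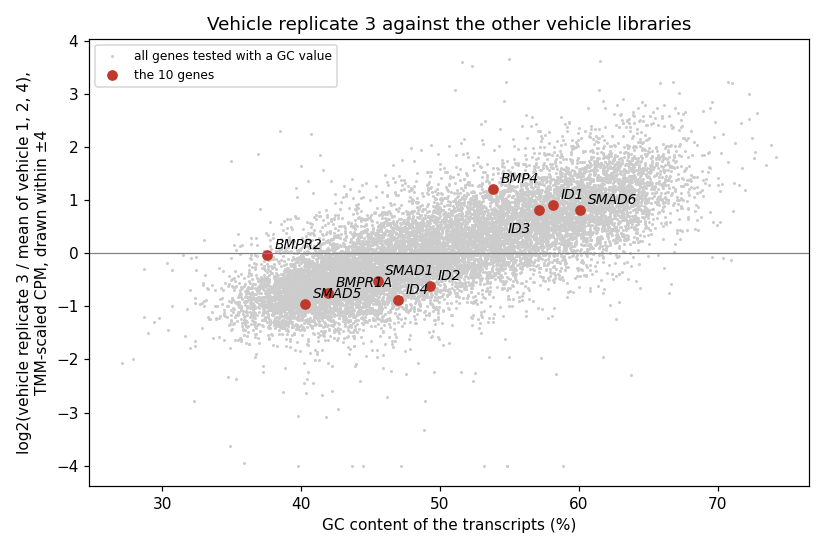
Ratio of vehicle replicate 3 to the mean of the other vehicle libraries (log2, y axis) against the GC content of the transcripts in percent (x axis), with 1 grey point for each gene tested that has a GC value and the 10 genes in red. BMP4, ID1, ID3 and SMAD6 sit above 0 and all others but BMPR2 sit well below it, along the slope of all genes.

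BMPR2 fell in TP-472-treated cells and was the single one of the 10 genes to pass the test. Both BMPR2 and SMAD6 were lower in every TP-472 library than in every vehicle library, while the ID genes overlapped between the groups. Of all genes tested, 26.9% were called (14.9% as lower), and 45.4% did not overlap between the groups (21.6% lower and 23.8% higher). With 1 call and 2 genes without overlap, all as lower, the 10 genes were below the shares in either direction. They were near the shares as lower, 14.9% and 21.6%. Dropping the fold limit left BMPR2 as the only gene of the 10 with an adjusted p under 0.05 in edgeR, beside 36.3% of all genes (19.1% as lower). The median log2 fold change of the 10 genes was −0.31, beside −0.03 for all genes tested.

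**Figure D2:**
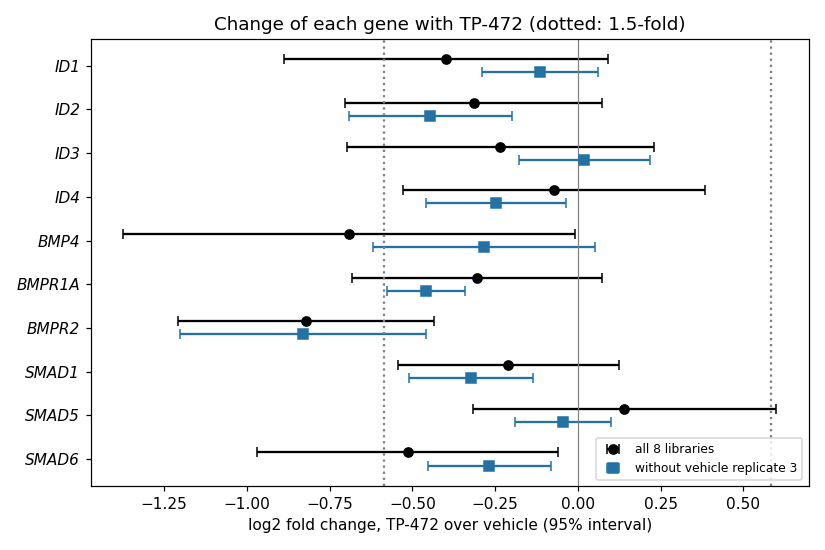
Log2 fold change (TP-472 over vehicle, x axis) of the 10 genes with its 95% confidence interval, with all 8 libraries and without vehicle replicate 3. With all 8 libraries the BMPR2 interval, from −1.21 to −0.43, lies farthest from 0, and without vehicle replicate 3 the intervals of all 10 genes are narrower.

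The promoters of both receptor genes are shown because BMPR2 was the gene that fell and BMPR1A is its partner in the receptor complex. The 250 bases upstream of the transcript start in RefSeq (GRCh38.p14), which differs from the gene start in GENCODE, are printed, 5′ to 3′ on the strand of the gene, and all 10 genes were matched in that table. Capitals mark matches to GGCGCC, a letter pattern bound by SMAD1 and SMAD5, and to CAGAC or its reverse complement GTCTG, the SMAD box, and no marked matches overlap. The window of BMPR2 lies at chr2:202376077-202376326 and that of BMPR1A at chr10:86755513-86755762, both on the plus strand.
BMPR2: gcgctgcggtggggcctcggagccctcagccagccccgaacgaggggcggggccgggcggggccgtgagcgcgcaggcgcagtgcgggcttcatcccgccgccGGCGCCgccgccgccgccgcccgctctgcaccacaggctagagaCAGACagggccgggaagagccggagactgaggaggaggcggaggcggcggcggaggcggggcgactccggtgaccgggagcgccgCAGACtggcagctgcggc
BMPR1A: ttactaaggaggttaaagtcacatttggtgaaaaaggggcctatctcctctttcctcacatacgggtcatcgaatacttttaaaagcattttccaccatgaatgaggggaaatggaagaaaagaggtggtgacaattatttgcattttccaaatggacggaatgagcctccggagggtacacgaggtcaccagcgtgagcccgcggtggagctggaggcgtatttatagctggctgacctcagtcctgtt
BMPR2 held a GGCGCC 147 bases and CAGAC 103 and 18 bases before the start. It also held GTCTG 15 and 20 bases after the start, beyond the bases printed, and the BMPR1A window held none of these. In the 35116 RefSeq promoter windows of 300 bases, which also take in the first 50 bases of the transcript, GGCGCC was present in 19.2% and CAGAC or GTCTG in 45.3%, on either strand. The letters of the cyclic AMP response element (TGACGTCA, in 1.85% of windows) and of the EGR1 site (GCGTGGGCG, in 0.795%) were searched as well. None of the 4 patterns was in the windows of ID1, ID2, SMAD6 or BMPR1A, and ID3 and ID4 held 1 CAGAC each. Among the windows of BMP4, SMAD1 and SMAD5, none of which passed the test, GGCGCC was present as well, and CAGAC or GTCTG in those of BMP4 and SMAD1, so that these letters were not particular to BMPR2. BMP4 had 3 windows and SMAD1 had 5, while each of the other genes had 1. Bases outside the windows were not searched. A match describes the letters of the window and is not evidence of binding.

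BMPR2 (ENSG00000204217.15, chr2:202376936-202567751, plus strand, GRCh38 in GENCODE 29) encodes the type II receptor that phosphorylates the type I receptor. Its level was 133, 96.8, 105 and 91.4 CPM with vehicle and 57.7, 53.7, 51.4 and 78.0 CPM with TP-472. The groups did not overlap, with TP-472 replicate 4 the nearest to the vehicle libraries and vehicle replicate 1 the farthest from the treated ones. Over the genes tested, the deviation of these 2 libraries from their own group rose with exon length (Spearman correlation 0.363 and 0.277). In the other libraries that correlation was −0.320 to 0.084. The part of length in the BMPR2 values was not tested. The mean was 106 ± 18.5 CPM in vehicle (SD, n = 4) and 60.2 ± 12.2 CPM after treatment, which is 1.77-fold lower. The log2 fold change was −0.82 (SE 0.171, edgeR's quasi-likelihood test, adjusted p = 0.0068), and an exact two-sided permutation test over the libraries gave p = 0.0286, the smallest value that 4 against 4 libraries allow. Leaving out vehicle replicate 3 gave −0.83 (SE 0.165, adjusted p = 0.00213), again past both limits. In bulk RNA, fewer cells with the transcript and less of it per cell cannot be told apart.

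BMPR1A (ENSG00000107779.14, chr10:86756601-86932838, plus strand) encodes the type I receptor that phosphorylates the SMADs. It measured 132, 137, 80.2 and 137 CPM with vehicle and 101, 94.8, 98.4 and 99.2 CPM with TP-472. All treated libraries lay below vehicle replicates 1, 2 and 4 and above vehicle replicate 3. A log2 fold change of −0.30 (SE 0.168, edgeR adjusted p = 0.178) did not pass the test. It was −0.46 when vehicle replicate 3 was left out (SE 0.053, edgeR adjusted p = 8.45e-05), under the 1.5-fold limit. The within-library log2 ratio of BMPR1A to BMPR2 was higher by 0.55 in TP-472-treated cells (exact two-sided permutation test, p = 0.0857, adjusted p = 0.171 over 8 pairs), and by 0.37 without vehicle replicate 3, so that a difference between the receptors was not shown.

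**Figure D3:**
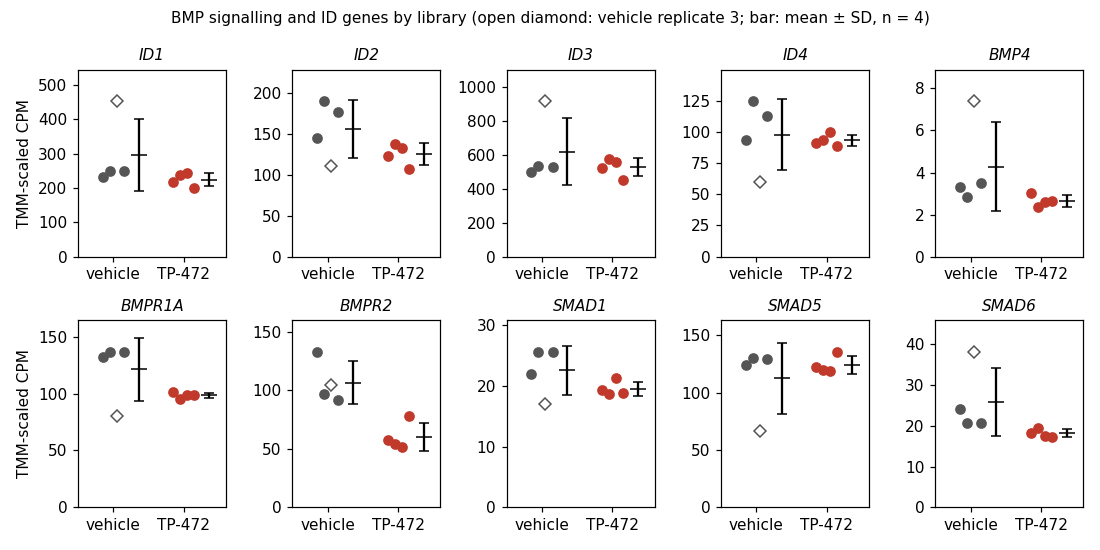
TMM-scaled CPM (y axis, linear and from 0) of the 10 genes in the vehicle and TP-472 libraries (x axis), 1 point per library, with vehicle replicate 3 as an open diamond and bars for the mean ± SD of 4 libraries. BMPR2 is the gene whose groups stand clear of each other with vehicle replicate 3 among its own group, and in ID1, ID3, BMP4 and SMAD6 that library sits alone at the top.

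BMP4 (ENSG00000125378.16, chr14:53949736-53958761, minus strand), the only BMP ligand gene among the 10, was also the least abundant of them. Its counts were 120, 99, 256 and 124 with vehicle and 116, 83, 93 and 100 with TP-472. Vehicle replicate 3 held over 2 times the reads of any other library, and the other vehicle libraries overlapped with the treated ones. The mean was 4.27 ± 2.11 CPM against 2.64 ± 0.274 CPM (SD, n = 4). A log2 fold change of −0.69 (SE 0.302, 95% confidence interval −1.37 to −0.01, edgeR adjusted p = 0.101) did not pass, and it dropped to −0.28 when vehicle replicate 3 was left out (SE 0.149, adjusted p = 0.131). The size of the BMP4 difference therefore rested on that library.

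SMAD1 and SMAD5 encode the transducers that carry the signal to the nucleus, and neither passed the test. SMAD1 (ENSG00000170365.10, chr4:145481194-145558079, plus strand) measured 22.0, 25.7, 17.0 and 25.6 CPM with vehicle and 19.3, 18.6, 21.3 and 18.8 CPM with TP-472. Its treated libraries lay below vehicle replicates 1, 2 and 4 and above vehicle replicate 3. SMAD1 had a log2 fold change of −0.21 (SE 0.148, edgeR adjusted p = 0.284), and −0.32 without vehicle replicate 3 (SE 0.083, adjusted p = 0.00838), under the 1.5-fold limit. SMAD5 (ENSG00000113658.18, chr5:136132845-136188747, plus strand) measured 124, 130, 66.2 and 130 CPM with vehicle and 122, 120, 119 and 136 CPM with TP-472. Apart from vehicle replicate 3, the SMAD5 groups overlapped, with treated libraries on both sides of the vehicle ones. Its log2 fold change was 0.14 (SE 0.203, edgeR adjusted p = 0.603), and −0.05 in the fit lacking vehicle replicate 3 (SE 0.065, adjusted p = 0.573). Within libraries the log2 ratio of SMAD1 to SMAD5 differed by −0.38 between treated and vehicle cells, which did not pass (exact two-sided permutation test, p = 0.0571, adjusted p = 0.152). The difference of this ratio was −0.27 with vehicle replicate 3 left out.

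SMAD6 (ENSG00000137834.15, chr15:66702228-66782848, plus strand) encodes the inhibitory SMAD that binds BMP type I receptors. It measured 24.0, 20.7, 38.1 and 20.7 CPM with vehicle and 18.2, 19.5, 17.5 and 17.3 CPM with TP-472. Every treated library lay below every vehicle library, by a narrow gap apart from vehicle replicate 3. SMAD6 had a log2 fold change of −0.51 (SE 0.201, edgeR adjusted p = 0.0724, exact two-sided permutation p = 0.0286, the smallest possible) and did not pass. That value shrank to −0.27 when vehicle replicate 3 was left out (SE 0.082, edgeR adjusted p = 0.0195), under the 1.5-fold limit.

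Per kilobase the ID genes were the most abundant of the 10, and none of them passed the test. Their summed level was 970, 1095, 1542 and 1066 CPM with vehicle and 955, 1044, 1030 and 848 CPM with TP-472. Vehicle replicate 3 was far above the rest, and the other vehicle libraries overlapped with the treated ones.

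ID1 (ENSG00000125968.9, chr20:31605283-31606515, plus strand), the family member most often read as a sign of BMP signalling, measured 233, 248, 454 and 248 CPM with vehicle and 218, 237, 243 and 199 CPM with TP-472. Vehicle replicate 3 stood alone, and the groups overlapped. ID1 had a log2 fold change of −0.40 (SE 0.216, 95% confidence interval −0.89 to 0.09, edgeR adjusted p = 0.173). Among the other 7 libraries it was −0.11 with an interval of −0.29 to 0.06 (SE 0.078, adjusted p = 0.233).

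ID3 (ENSG00000117318.9, chr1:23557918-23559794, minus strand), whose product also pairs with E proteins, measured 499, 531, 917 and 529 CPM with vehicle and 522, 576, 555 and 453 CPM with TP-472. With vehicle replicate 3 aside, the treated libraries lay on both sides of the vehicle ones. Its log2 fold change of −0.23 (SE 0.205, edgeR adjusted p = 0.388) turned to 0.02 without vehicle replicate 3 (SE 0.088, adjusted p = 0.866).

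ID2 (ENSG00000115738.10, chr2:8678845-8684453, plus strand) measured 145, 191, 111 and 177 CPM with vehicle and 124, 138, 133 and 108 CPM with TP-472. Here vehicle replicate 3 was low and the treated libraries lay below the other vehicle libraries. Its log2 fold change was −0.31 (SE 0.172, edgeR adjusted p = 0.176), and −0.45 without vehicle replicate 3 (SE 0.109, adjusted p = 0.00659), a difference under the 1.5-fold limit.

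ID4 (ENSG00000172201.12, chr6:19837386-19840684, plus strand), the least abundant ID gene, measured 93.7, 125, 59.9 and 113 CPM with vehicle and 91.3, 93.3, 99.7 and 88.4 CPM with TP-472. The treated libraries fell within the range of the vehicle libraries. The log2 fold change was −0.07 (SE 0.202, edgeR adjusted p = 0.799), and −0.25 without vehicle replicate 3 (SE 0.094, adjusted p = 0.0469), again under the 1.5-fold limit.

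When vehicle replicate 3 was left out, 6 of the 10 genes had an adjusted p under 0.05 in edgeR's quasi-likelihood test, all of them lower: ID2, ID4, BMPR1A, BMPR2, SMAD1 and SMAD6. In the same fit 57.0% of all genes had an adjusted p under 0.05, 28.4% as lower and 28.6% as higher, so that the 10 genes were near the share in either direction and above the share as lower. BMPR2 alone passed the 1.5-fold limit as well, beside 25.5% of all genes (13.4% as lower). Groups without overlap were found for 5 of the 10 genes in these 7 libraries, ID2, BMPR1A, BMPR2, SMAD1 and SMAD6, all lower, beside 58.5% of all genes (28.7% as lower).

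Removing each library's trend with GC content, with all 8 libraries kept, also moved the values of the 10 genes. BMPR2 was at −1.06 on the log2 scale (edgeR adjusted p = 0.00439) and stayed past both limits. ID1 moved to −0.10 (edgeR adjusted p = 0.335) and SMAD6 to −0.16 (adjusted p = 0.0769), both nearer to 0 than before the correction. BMPR1A, at −0.44 (edgeR adjusted p = 0.000566), and SMAD1, at −0.31 (adjusted p = 0.0188), had an adjusted p under 0.05 without reaching 1.5-fold. ID2, ID3, ID4, BMP4 and SMAD5 had an adjusted p of 0.0657 or more in that fit.

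Ratios between ID genes within a library compare their responses directly. Of the 6 ID pairs, the log2 ratio of ID1 to ID3 was −1.07 ± 0.04 in vehicle and −1.23 ± 0.047 in TP-472-treated cells (SD, n = 4), lower in every treated library. The log2 ratio of ID2 to ID4 was lower by 0.27, also without overlap. Each reached the smallest p an exact two-sided permutation test allows here (p = 0.0286), and neither passed the adjustment over 8 pairs (adjusted p = 0.114). With vehicle replicate 3 left out, these differences were −0.13 and −0.20. Larger ones were found for ID2 to ID3, with −0.45, for ID1 to ID2, with 0.32, and for ID3 to ID4, with 0.25. The ratios of ID2 to ID3 and of ID1 to ID2 were without overlap in those 7 libraries, and that of ID3 to ID4 overlapped. None of the 8 pairs passed there either (exact two-sided permutation tests, lowest adjusted p = 0.0762). Across libraries ID1 and ID3 moved together, with a Pearson correlation of log2 CPM of 0.975 over 8 libraries and 0.765 over the 7 without vehicle replicate 3, and ID2 and ID4 likewise, with 0.814 and 0.926. The other ID pairs turned from negative over 8 libraries to positive over 7. ID1 with ID2 went from −0.177 to 0.853, above ID1 with ID3 there, and ID1 with ID4 from −0.679 to 0.742. ID1 and SMAD5 ran opposite with −0.959 over 8 libraries, and with −0.392 over 7, and ID3 and SMAD5 with −0.974 and −0.764. These libraries share treatment groups and GC deviations, so the correlations are descriptions.

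Levels per kilobase were CPM divided by the merged length of all annotated exons of a gene. That length can exceed any single transcript, so the order between genes is approximate. The vehicle mean was highest for ID3 (344 ± 111 CPM per kilobase, SD, n = 4), followed by ID1 (240 ± 85.6), ID2 (70.7 ± 16.0) and ID4 (41.8 ± 12.1). The receptors and transducers came next, with SMAD5 at 12.5 ± 3.44, BMPR1A at 10.6 ± 2.42 and BMPR2 at 8.94 ± 1.55 CPM per kilobase, then SMAD1 at 3.73 ± 0.672, SMAD6 at 3.02 ± 0.971 and BMP4 at 1.38 ± 0.686. Neighbours in that order whose vehicle ranges overlapped were ID3 and ID1, ID2 and ID4, SMAD5 and BMPR1A, BMPR1A and BMPR2, and SMAD1 and SMAD6. Within a library the order held more often, since ID3 was above ID1 and ID2 above ID4 in all 8 libraries.

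The genes whose log2 CPM was most like that of an ID gene over the 8 libraries were TPM2, CYBA and C1QL1 for ID1, with Pearson correlations of 0.997, 0.994 and 0.994. For ID2 the nearest were NIPSNAP3A (0.985), AKR1A1 (0.983) and TSG101 (0.983). RPS6KA4, ZNF768 and METTL26 were nearest to ID3, each with 0.996, and PLS3 (0.995), NDC80 (0.993) and EIF4A2 (0.992) to ID4. BMP4 was matched by SLC29A2 (0.995), HTRA3 (0.992) and ZSWIM8 (0.991), and SMAD6 by HOOK2 (0.998), SLC38A10 (0.996) and FAM193B (0.995). Over the 7 libraries without vehicle replicate 3 these correlations were lower, for example 0.972 for TPM2 with ID1 and 0.937 for ZSWIM8 with BMP4. Each of these genes deviated in vehicle replicate 3 in the direction of the gene it was matched to. The ratios to the other vehicle libraries were 1.78 to 2.54 for the genes like ID1 and 0.421 to 0.564 for those like ID4.

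Around these 10 genes, 4 of the 9 pseudoreceptor and intracellular inhibitor genes rose, SMAD7, SMURF2, SKIL and BAMBI, and the other 5 were not called. ACVR2A, RGMB and HES1 rose as well. BMP5, the extracellular antagonist gene FSTL1, ACVR2B, SMAD9 and TCF4 were among the genes that fell. Of 81 other genes of BMP and ID signalling, 46 had enough reads to be tested, and 22 of them were past both limits. Among these 22, RGMA and MSX2 passed the filter on low values only through the group in which they were higher, and BMP8A and TLL2 largely so. These 4 genes are given as values alone and are left out of the counts of called genes by role, though not of the counts tested. Of the other 42 genes, 18 were called, of which 7 rose and 11 fell, beside 12.0% of all genes called as higher and 14.9% called as lower. Their median log2 fold change was −0.19. The counts of called genes by role below stand beside the same shares of all genes, 12.0% higher and 14.9% lower. Leaving out vehicle replicate 3 gave 19 calls, 10 higher and 9 lower, of which 16 were also called with all 8 libraries, and FURIN and GATA4 were lost. After each library's trend with GC content was removed, BMP1 (−0.51), CHRD (−0.42), FURIN (−0.49) and GATA4 (−0.48) were under the 1.5-fold limit on the log2 scale. With that correction 13 of the 46 genes, the 4 included, were called higher and 8 lower, beside 10 and 12 without it. Over all 14073 genes tested, 1916 were called higher and 2066 lower with the correction, beside 1693 and 2096 without it.

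**Figure D4:**
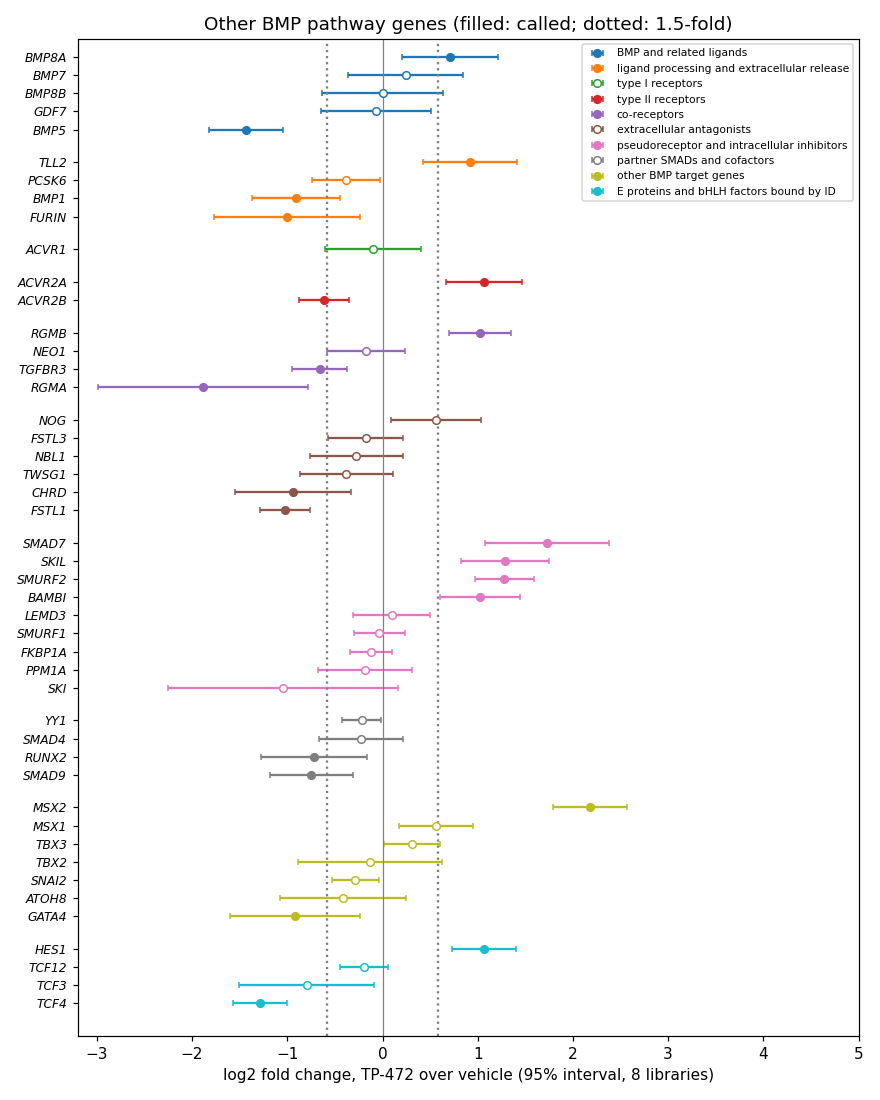
Log2 fold change (TP-472 over vehicle, x axis) of the tested pathway genes by role, coloured by role, with 95% confidence intervals, filled points for genes past both limits and dotted lines at 1.5-fold. Among the pseudoreceptor and intracellular inhibitors SMAD7, SMURF2, SKIL and BAMBI lie to the right of 0, and BMP5, FSTL1 and TCF4 lie farthest left among genes with narrow intervals.

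All 9 genes of the pseudoreceptor and intracellular inhibitors were tested, of which 4 rose and none fell, with a median log2 fold change of 0.10. Of all genes tested, 12.0% were called higher and 14.9% lower. SMAD7, the inhibitory SMAD shared by the BMP and TGF-beta pathways, measured 0.942, 1.06, 2.34 and 1.21 CPM with vehicle and 4.66, 4.65, 4.02 and 5.13 CPM with TP-472. SMAD7 was 3.32-fold higher, with a log2 fold change of 1.73 (SE 0.288, edgeR adjusted p = 0.00246) and of 2.10 without vehicle replicate 3. The groups were apart even with vehicle replicate 3, the highest of the vehicle libraries. SMURF2, a ubiquitin ligase that acts on SMADs and receptors, rose from 109 ± 17.6 to 264 ± 17.9 CPM (SD, n = 4), a log2 fold change of 1.28 (SE 0.138, edgeR adjusted p = 3.26e-04). SKIL, a SMAD co-repressor also called SnoN, rose from 33.8 ± 8.98 to 82.3 ± 9.59 CPM (log2 fold change 1.29, SE 0.204, edgeR adjusted p = 0.002). BAMBI, a pseudoreceptor without a kinase domain, rose from 2.43 ± 0.509 to 4.96 ± 0.516 CPM (log2 fold change 1.03, SE 0.185, edgeR adjusted p = 0.00358). SKI, the relative of SKIL, had a log2 fold change of −1.04 (edgeR adjusted p = 0.152), did not pass and was named after its values were seen. It stood at 92.9 CPM in vehicle replicate 3 and at 16.1 to 41.1 CPM in the other vehicle libraries, and without that library its log2 fold change was −0.28. All of SMAD7, SMURF2, SKIL and BAMBI passed without vehicle replicate 3 as well.

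**Figure D5:**
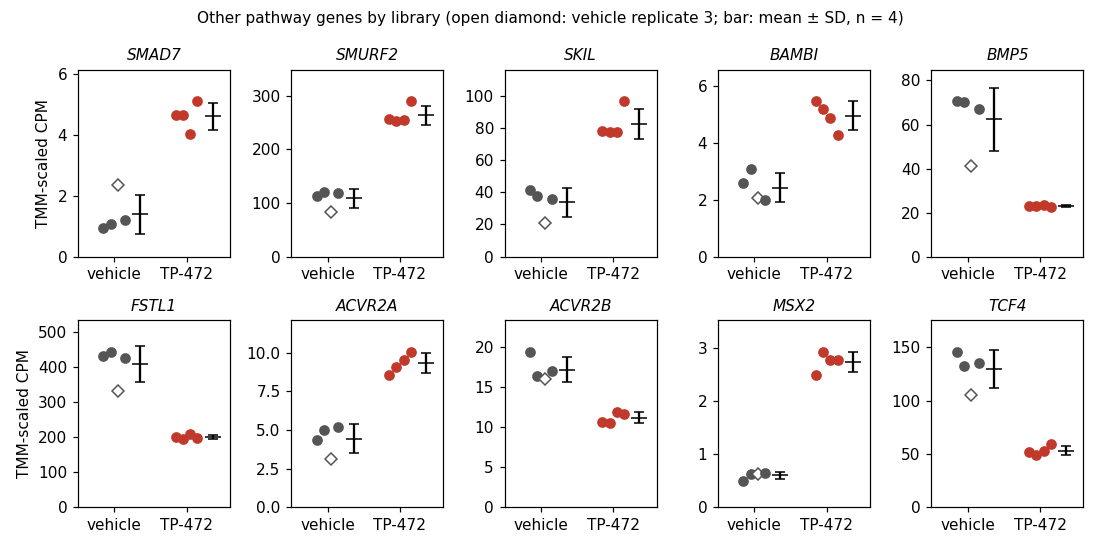
TMM-scaled CPM (y axis, linear and from 0) of 10 pathway genes past both limits in the vehicle and TP-472 libraries, 1 point per library, with vehicle replicate 3 as an open diamond and bars for the mean ± SD of 4 libraries. MSX2 passed the filter on low values only through the treated group and is shown as values alone. In the other genes shown the groups do not overlap. Vehicle replicate 3 is nearer to the treated libraries than the other vehicle libraries in SMAD7, BMP5, FSTL1, ACVR2B and TCF4.

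Of 13 other ligand genes 5 were tested, and BMP5 fell. BMP5, a ligand of the same receptors, measured 70.8, 70.2, 41.2 and 67.1 CPM with vehicle against 22.7 to 23.7 CPM in the treated libraries. Its treated libraries lay close together, far below even vehicle replicate 3. It was 2.69-fold lower (log2 fold change −1.43, SE 0.172, edgeR adjusted p = 5.81e-04). BMP8A was at 0.767 ± 0.188 CPM in vehicle and 1.26 ± 0.115 CPM in treated cells, a log2 fold change of 0.71. BMP7 had a log2 fold change of 0.24 (edgeR adjusted p = 0.496) with all libraries and of 0.59 (adjusted p = 0.00471) without vehicle replicate 3, where it passed; it was named after its values were seen.

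Among the genes for processing of ligands, 4 of 5 were tested, and 2 were called lower. FURIN, the protease that cleaves BMP precursors, was at 16.2 ± 9.87 CPM in vehicle and 8.08 ± 0.287 CPM in treated cells (log2 fold change −1.0, edgeR adjusted p = 0.0453), and without vehicle replicate 3 it was under the fold limit with −0.48. The FURIN call was also lost when vehicle replicate 1 or any 1 treated library was left out (edgeR adjusted p of 0.0546 to 0.104). BMP1, a metalloprotease that cleaves chordin despite its name, fell from 34.9 ± 11.6 to 18.6 ± 0.921 CPM (log2 fold change −0.91, edgeR adjusted p = 0.00946), and by 0.65 on the log2 scale without vehicle replicate 3. TLL2, a relative of BMP1, had a log2 fold change of 0.92, from 0.955 ± 0.204 to 1.81 ± 0.318 CPM.

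Both other type II receptor genes passed, in opposite directions. ACVR2A measured 4.35, 5.00, 3.16 and 5.23 CPM with vehicle and 8.54, 9.08, 9.54 and 10.1 CPM with TP-472, a log2 fold change of 1.07 (SE 0.176, edgeR adjusted p = 0.00234). ACVR2B measured 19.5, 16.4, 16.0 and 17.0 CPM with vehicle and 10.7, 10.6, 11.9 and 11.7 CPM with TP-472, a log2 fold change of −0.62 (SE 0.116, edgeR adjusted p = 0.00429). Neither pair of groups overlapped, and ACVR2B fell by just over the limit, 1.53-fold, and was under it without vehicle replicate 1 (−0.55 on the log2 scale). Of the type I receptors ACVR1 was tested and did not pass (14.9 ± 3.57 against 14.0 ± 3.86 CPM; log2 fold change −0.10, edgeR adjusted p = 0.748).

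Co-receptor genes were tested for 4 of 6, of which RGMB rose and TGFBR3 fell. RGMB, a membrane-anchored BMP co-receptor, rose from 7.58 ± 0.791 to 15.4 ± 2.28 CPM (log2 fold change 1.03, SE 0.145, edgeR adjusted p = 0.00119). Its relative RGMA was at 2.69 ± 1.98 CPM in vehicle and 0.723 ± 0.223 CPM in treated cells, a log2 fold change of −1.88 that was −1.25 without vehicle replicate 3. TGFBR3, also called betaglycan, fell from 17.4 ± 2.17 to 11.0 ± 0.63 CPM (log2 fold change −0.66, SE 0.129, edgeR adjusted p = 0.00502).

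Extracellular antagonists were tested for 6 of 16 genes, with 2 fallen and none risen. FSTL1, a secreted follistatin-like protein that can bind BMP4, measured 430, 443, 331 and 426 CPM with vehicle and 200.2, 194, 209.5 and 198 CPM with TP-472. Its groups stood well apart, and the gene was 2.03-fold lower (log2 fold change −1.02, SE 0.117, edgeR adjusted p = 4.38e-04). CHRD, which encodes chordin, fell from 3.24 ± 1.25 to 1.69 ± 0.271 CPM (log2 fold change −0.94, edgeR adjusted p = 0.0261), and its value was −0.63 without vehicle replicate 3. The CHRD call was lost when TP-472 replicate 2, 3 or 4 was left out (edgeR adjusted p of 0.0544 to 0.0742). NOG, which encodes noggin, had a log2 fold change of 0.56 (edgeR adjusted p = 0.0611) and passed without vehicle replicate 3, with 0.81 (adjusted p = 1.77e-04); it was named after its values were seen.

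Partner SMADs and cofactors were tested for 4 of 5 genes, and 2 fell. SMAD9, the third BMP-regulated transducer, fell from 6.07 ± 0.588 to 3.61 ± 0.901 CPM (log2 fold change −0.75, SE 0.193, edgeR adjusted p = 0.0167). RUNX2, a transcription factor that binds SMADs, fell from 7.36 ± 1.75 to 4.46 ± 1.35 CPM, with overlap between the groups (log2 fold change −0.72, edgeR adjusted p = 0.0463). Leaving out vehicle replicate 1 or TP-472 replicate 1, 2 or 3 ended the RUNX2 call (edgeR adjusted p of 0.115 to 0.125), and leaving out TP-472 replicate 2 or 3 ended that of SMAD9 (0.0526 and 0.0573). SMAD4, the common partner, measured 126, 124, 65.3 and 121 CPM with vehicle and 94.1, 89.9, 91.0 and 98.5 CPM with TP-472. It showed the arrangement of BMPR1A, with all treated libraries between vehicle replicate 3 and the other vehicle libraries, and did not pass (log2 fold change −0.22, edgeR adjusted p = 0.385). In the other 7 libraries it was −0.41 (edgeR adjusted p = 2.62e-04), under the fold limit.

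Other BMP target genes were tested for 7 of 15, and GATA4 was called lower. MSX2, a homeobox gene, measured 0.499, 0.632, 0.637 and 0.646 CPM with vehicle, and its mean in treated cells was 2.74 ± 0.186 CPM (log2 fold change 2.18, SE 0.173). Its relative MSX1, named after its values were seen, had a log2 fold change of 0.56 (edgeR adjusted p = 0.0324), under the fold limit, and passed without vehicle replicate 3. GATA4 was at 3.16 ± 1.45 CPM in vehicle and 1.67 ± 0.284 CPM in treated cells (log2 fold change −0.92, edgeR adjusted p = 0.0405), and without vehicle replicate 3 its −0.55 was under the fold limit. The GATA4 call was also lost when any 1 treated library was left out (edgeR adjusted p of 0.0697 to 0.109). MSX2 was 4.52-fold higher, and whether its response differed from that of the ID genes was not tested.

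The E proteins and other helix-loop-helix factors, which ID proteins bind, were tested for 4 of 7 genes. TCF4, which encodes the E protein E2-2, measured 146, 132, 105 and 136 CPM with vehicle and 52.0, 49.4, 52.4 and 59.2 CPM with TP-472. No treated library came near the vehicle ones, and TCF4 was 2.43-fold lower (log2 fold change −1.28, SE 0.125, edgeR adjusted p = 2.23e-04). HES1, a bHLH repressor, rose from 2.67 ± 0.296 to 5.60 ± 0.478 CPM (log2 fold change 1.07, SE 0.148, edgeR adjusted p = 0.00112). TCF3, which encodes E12 and E47, had a log2 fold change of −0.79 (edgeR adjusted p = 0.0755) and TCF12 of −0.20 (adjusted p = 0.185), and neither passed. Without vehicle replicate 3 the values were −0.31 for TCF3 (edgeR adjusted p = 0.00393) and −0.27 for TCF12 (adjusted p = 0.00693), both under the fold limit. TCF3 and TCF12 were named after their values were seen.

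Below the filter on low values were 35 of the 81 genes, of which 30 had a count. In 10 of the 30 the CPM of every treated library was above that of every vehicle library, and in 1 it was below, beside 7.02% and 3.08% of all 19119 genes with a count below the filter. The target genes HEY1 and DLX2, the ligand gene BMP6, the receptor gene BMPR1B and the myogenic factor gene MYOD1 are named from these after their values were seen. HEY1 had 6, 7, 1 and 6 counts with vehicle and 36, 45, 43 and 48 with TP-472. DLX2 had 13, 5, 20 and 7 counts with vehicle and 69, 35, 33 and 66 with TP-472. For both target genes the libraries fell into separate ranges. BMP6 had 1 to 3 counts in the vehicle libraries and 15 to 29 in the treated ones, and BMPR1B had 0 counts in every vehicle library and 3 to 10 in the treated ones. MYOD1 ran the other way, with 22, 8, 28 and 4 counts with vehicle and 0, 2, 2 and 1 with TP-472. They were not part of the edgeR test.

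The targets of the compound and the markers of the cells were read in the same libraries. BRD9 was at 80.1 ± 23.1 CPM in vehicle and 71.5 ± 3.17 CPM in TP-472-treated cells (log2 fold change −0.16, edgeR adjusted p = 0.486). Vehicle replicate 3 was the highest at 115 CPM, and without it the direction turned, to 0.06 (edgeR adjusted p = 0.44). BRD7 stood at 56.2 ± 0.583 and 60.8 ± 2.65 CPM (log2 fold change 0.11, edgeR adjusted p = 0.324). Of 10 smooth muscle markers 7 were tested and 3 fell (DES, LMOD1 and TAGLN), beside 14.9% of all genes called as lower. The summed level of the 10 markers was 439 to 524 CPM in vehicle and 371 to 380 CPM in treated cells. CALD1 and ACTA2 were abundant, with vehicle means of 200 and 160 CPM, while MYH11, MYOCD and ACTG2, which mark mature smooth muscle, were near 0. MYH11 was higher in every treated library, with 0, 0, 0 and 1 counts with vehicle and 10, 8, 7 and 10 with TP-472. The summed level of 6 epithelial markers was 18.2 to 24.0 CPM in vehicle and 21.1 to 27.9 CPM in treated cells, with KRT18 risen and KRT19 fallen. The 5 endothelial markers were all below the filter. They summed to 0.0831 to 0.144 CPM in vehicle and 0.414 to 0.687 CPM in treated cells, higher in every treated library. VWF and PECAM1 were the most abundant, and CDH5 and KDR were at 0 in every vehicle library. Every treated library had more genes with a count, 25386 to 26215 against 23333 to 23943 with vehicle. Of all 19119 genes with a count below the filter, 7.02% were higher without overlap, as was MYH11, and 3.08% lower. Among the leukocyte markers, which summed to 7.15 to 8.51 CPM in vehicle and 9.75 to 13.0 CPM in treated cells, CD68 made up most, and PTPRC and CD3E were at 0 in every vehicle library. The part of these marker levels in the results above was not tested.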

How the data were processed

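RNA from SK-UT-1 cells was sequenced in 4 vehicle and 4 TP-472 libraries. The values deposited by the authors are estimated counts: salmon 1.4.0 estimates on GENCODE 34 transcripts, summed to genes with tximport, neither normalized nor filtered. The labels and the study name different library kits, so whether the reads keep their strand is uncertain, and genes that overlap an antisense transcript may share reads. Estimated counts were rounded, and genes above 1 CPM in 4 or more of the 8 libraries were tested with the quasi-likelihood test of edgeR 4.0.16 (R 4.3.3, TMM scaling, no further terms). Calls needed more than a 1.5-fold change at an adjusted p-value under 0.05, the limits in the study's methods, whose text names no test for the RNA-seq genes. Ratios used CPM plus 0.5 and exact two-sided permutation tests over 70 splits, or 35 without vehicle replicate 3. Likeness used log2-transformed CPM (prior count 2).

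The members and gene lists were chosen with earlier results of these data known. The text names the 10 genes, every called gene of the pathway lists, their tested receptors and SMADs, the 3 genes most like each ID gene, BMP4 and SMAD6, and BRD9 and BRD7. Alternatives were other scalings, filters and thresholds, DESeq2 1.42.0, limma 3.58.1 (voom), leaving out single libraries, and a replicate block. Removing the GC trend of each library was added after seeing the data. Gene positions, merged exon length and GC content come from GENCODE 29 (GRCh38). On simulated data with this comparison's libraries, 146 of 200 genes changed 2-fold were called, and 8 unchanged genes, over 14073 genes. Mean chi-square values between libraries of a group were at least 12.8, so none was a duplicate. Library totals were at least 32574716, and the spread between replicates limits the precision. The authors' qPCR and protein measurements were not used here.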

Additional observations from a re-analysis of the deposited data

Results flagged for a closer look

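Of the 34 named genes of the pathway in 2 groups of 4 libraries (68 groups), 19 had a library far from the other 3 of its group, where chance gives about 1 in 20, and 13 of the 19 were in vehicle replicate 3. In that library ID1 was at 454 CPM (the other vehicle libraries at 233 to 248), ID3 at 917 (499 to 531) and BMP4 at 7.41 (2.85 to 3.48). BMPR1A was at 80.2 CPM (132 to 137), SMAD5 at 66.2 (124 to 130) and SMAD4 at 65.3 (121 to 126). BMP5 was at 41.2 CPM (67.1 to 70.8), TGFBR3 at 14.2 (18.2 to 18.9) and FSTL1 at 331 (426 to 443). FURIN was at 31.0 CPM (10.7 to 11.9), BMP1 at 52.2 (28.6 to 29.3), CHRD at 5.10 (2.41 to 2.84) and GATA4 at 5.33 (2.33 to 2.64). In TP-472 replicate 4, ACVR1 was at 19.7 CPM (the other treated libraries at 11.7 to 12.6), SMURF2 at 290 (252 to 257), SKIL at 96.7 (77.3 to 77.8) and RUNX2 at 6.47 (3.61 to 3.89). BMP8A was at 1.09 CPM in TP-472 replicate 1 (1.30 to 1.32), and MSX2 at 0.499 CPM in vehicle replicate 1 (0.632 to 0.646). The cause of these differences was not tested.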

How the results depend on the processing

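BMPR2 was called as lower in edgeR under other scalings and filters, in DESeq2 and limma-voom, with the replicate block and with each library left out, at −0.97 to −0.70 on the log2 scale (adjusted p 3.93e-06 to 0.0278), and with the GC correction at −1.06. In a test against a 1.5-fold change 0 of the 10 genes were called, and 1123 of all genes beside 3789. The pathway list gave 22 calls, with the 4 genes that passed the filter mainly through 1 group (BMP8A was not called in 10 of 17 alternatives). It gave 12 with a filter of 5 CPM, beside 2672 of all 11067 genes tested there, and 27 with filterByExpr, beside 4556 of 17129. With any count as the filter edgeR gave 33, beside 5090 of 33192. DESeq2 gave 35, beside 2666 genes called higher and 2880 lower of 24115 tested. The test against 1.5-fold gave 10. Leaving out each library in turn gave 15 to 23 pathway calls and 2690 (without TP-472 replicate 3) to 4223 (without vehicle replicate 2) calls over all genes. ID3 changed sign to 0.037 with limma-voom quality weights, 0.015 with the GC correction and 0.070 with that correction and without vehicle replicate 3. SMAD5 changed to −0.091 with quality weights and −0.052 with the correction and without vehicle replicate 3. With each library left out, ID3 ranged from −0.32 to 0.019, SMAD5 from −0.045 to 0.22, ID4 from −0.25 to 0.069 and ACVR1 from −0.31 to 0.082. The causes were not tested. The replicate numbers were not taken to pair the libraries: the correlations of same-numbered deviations were −0.06, 0.12, −0.17 and −0.18, and with the replicate block 3055 genes, 18 of the pathway list and 1 of the 10 genes were called.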
